A study of Mus musculus with 24 samples.

Results

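Inhibitory neurotransmission was examined here through 29 genes of GABA and glycine signalling and of the neurons that release GABA. They encode GABA and glycine receptor subunits, the enzymes and carriers that make and move GABA, a receptor scaffold, the chloride carriers, interneuron transcription factors and somatostatin. Members were taken as the probe sets whose platform annotation names one of these genes, which gave 34 of the 24833 probe sets on both arrays. They stood for 26 of the 13674 genes that a probe set names alone, and Gabra5, Glra2 and Abat were not analysed here. Of the 34 probe sets, 30 passed a filter on dim signals and were tested. Array A carried 22 of them and array B the other 8, for 24 genes.

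The samples were total RNA from brains of Ts1Cje mice and of 2N mice, whose chromosomes are normal in number. Ts1Cje mice model Down syndrome: the end of chromosome 16 is present in an extra copy, joined to the end of chromosome 12, and Sod1 at its boundary is disrupted. Array A (the design the labels call MGU74A) and array B (MGU74B) each held 6 Ts1Cje and 6 2N samples. The labels give no brain region, age or sex, and do not say that the samples were separate animals, so the p-values rest on a spread between samples that may in part be technical. In gene order of the GRCm38.p6 annotation, 0 of the 29 genes lay distal to Sod1. Sst and Abat are on chromosome 16 on the other side of it, and Gphn is on chromosome 12.

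GABA is made from glutamate by the glutamate decarboxylases Gad1 and Gad2, packed into vesicles by Slc32a1 and taken up again by carriers such as Slc6a11. It opens chloride channels built from alpha, beta and gamma or delta subunits (GABA-A receptors) and acts through the G-protein coupled GABA-B receptor. Glycine opens related channels of the Glra and Glrb subunits, which gephyrin (Gphn) anchors at the synapse. The direction of the chloride current depends on Slc12a2, which brings chloride into the cell, and Slc12a5, which removes it. The homeobox genes Dlx1, Dlx2, Dlx5, Dlx6 and Lhx6 act in the forebrain progenitors and migrating cells that become interneurons, and Sst marks one interneuron class.

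Signal was recorded as an intensity in arbitrary units, 1 value per probe set and array, quantile normalised within each array design. Before that step, medians of single arrays lay between 11.2 and 21.7 (A) or between 7.9 and 13.8 (B). Probe sets differ in how well they bind, so intensities were compared between samples and not between genes. "Bright" below means at or above the median intensity of the tested probe sets (30.8 for array A, 16.1 for array B). The first principal component of all tested probe sets (14.6% of the variance for array A, 12.8% for array B) separated the samples numbered 1 and 2 from those numbered 3 to 6 in either genotype. The labels do not name this split, so differences were also taken within numbers 3 to 6. In whole tissue, fewer cells of a type and less RNA per cell cannot be told apart.

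No member differed between Ts1Cje and 2N brain past the threshold. On array A 0 of 22 probe sets passed, where 0.0966% of all those tested did. On array B it was 0 of 8, beside 0.0645% (limma, adjusted p from 0.99 to 0.998). At an unadjusted p under 0.05 array A had 0 of 22, beside 3.63% of all tested probe sets, and array B had 1 of 8, beside 4.24%. The intensities of both genotypes overlapped for all 30 tested probe sets, and 0.301% and 0.247% of all tested probe sets did not overlap. The median log2 difference (Ts1Cje minus 2N) of the members was -0.0081 for array A, beside -0.0042 over all tested probe sets. For array B it was -0.05, beside -0.0035. Differences lay above 0 for 10 of 22 and 3 of 8 member probe sets, beside 48.9% and 49.3% of all those tested.

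How large a difference could have been missed depended on brightness. The 95% interval lay within 1.5-fold in either direction, the ratio of 3 gene copies to 2, for 17 of 30 member probe sets. On array A these were 11 of the 12 bright ones and 2 of the 10 dimmer ones, and on array B they were 3 of 5 and 1 of 3. For the other 13 the interval reached beyond 1.5-fold, so a difference of that size was not excluded.

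**Figure D1:**
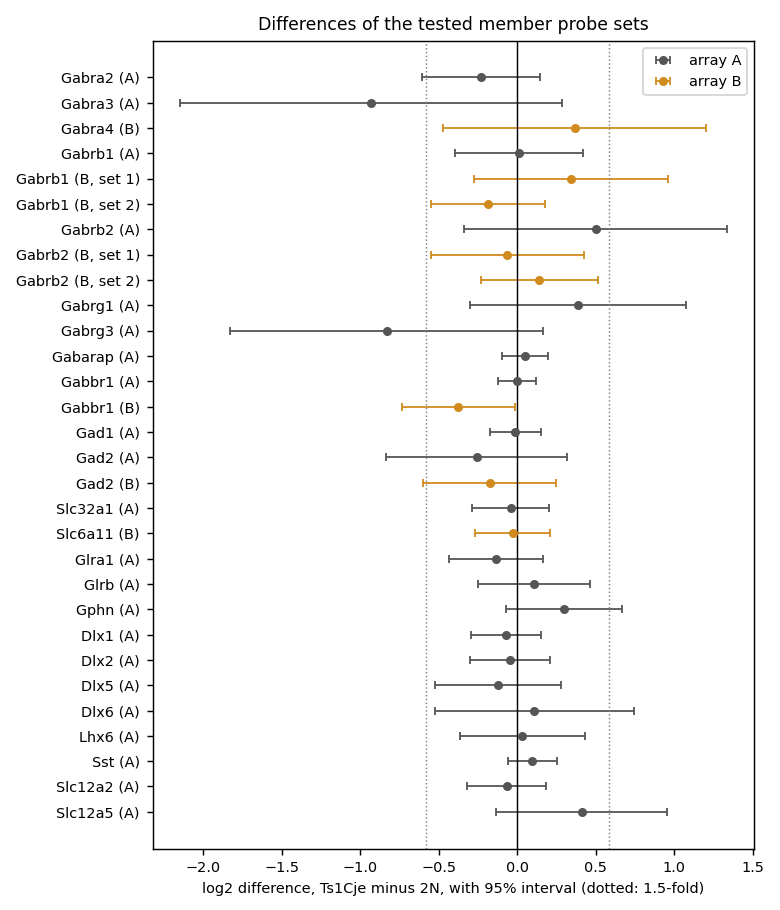
Log2 difference (Ts1Cje minus 2N) of the 30 tested member probe sets with 95% limma intervals, in order of role, with array A in grey and array B in orange; dotted lines mark 1.5-fold. The intervals of Gabbr1, Gabarap, Gad1 and Sst on array A are narrow and hold 0, and those of Gabra3, Gabrg3 and Gabra4 are wide.

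Of the genes of GABA synthesis and transport, 0 of 5 probe sets passed, and all 5 log2 differences lay between -0.26 and -0.01. Of all tested probe sets 48.9% (A) and 49.3% (B) lay above 0. Under other processing or with samples left out, the sign changed in 5 of 24 fits for Gad1, 3 of 24 for Slc32a1 and 4 of 24 for Slc6a11. For Gad2 it changed in 0 of 23 (array A) and 1 of 24 (array B). Gad1 had a lowest, median and highest intensity of 174, 184 and 199 in Ts1Cje brain, against 170, 186 and 216 in 2N brain. Its means were 186 ± 11.5 in Ts1Cje and 188 ± 16.3 in 2N (SD, n = 6 each), a log2 shift of -0.01 (SE 0.0765, limma adjusted p = 0.998). The interval allowed a fold from 0.886 to 1.11, one of the tightest among the members. A Gad1 probe set on array B was too dim to test, at 1.97 in Ts1Cje and 3.95 in 2N (medians).

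Slc32a1, the vesicular carrier of GABA and glycine, ran over 263, 307 and 381 in Ts1Cje brain, against 240, 322 and 397 in 2N brain (lowest, median and highest). The log2 difference was -0.04 (SE 0.116, limma adjusted p = 0.998), and 2N samples held both extremes. Slc6a11, a plasma membrane GABA carrier found largely on astrocytes, ran over 81.7, 105 and 134 in Ts1Cje brain, against 88.2, 106 and 135 in 2N brain on array B. Its ranges were nearly the same, with a log2 shift of -0.03 (SE 0.114, limma adjusted p = 0.996). Gad2 had a probe set on each array, with log2 differences of -0.26 (SE 0.273, array A) and -0.18 (SE 0.202, array B). Its median on array B was 23.4 in Ts1Cje and 23.9 in 2N, and the lowest value, 10.6, was that of Ts1Cje replicate 2. Without that sample the Gad2 difference on array B was 0.011.

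Of the interneuron genes 0 of 6 passed, 3 lay above 0 and 3 below, and the log2 differences were between -0.13 and 0.11. Somatostatin, a peptide hormone of inhibitory neurons, ran over 345, 397 and 425 in Ts1Cje brain, against 321, 375 and 413 in 2N brain. Sst averaged 393 ± 27.9 in Ts1Cje and 368 ± 33.4 in 2N (SD, n = 6 each), with a log2 shift of 0.10 (SE 0.0736, limma adjusted p = 0.99). The interval allowed a fold from 0.959 to 1.19, so a 1.5-fold difference lay outside it. Sst lies on chromosome 16 but not in the segment carried in an extra copy.

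The promoter window of Sst is shown because somatostatin transcription is a textbook case of control by cyclic AMP, through an element that binds CREB. The sequence is from RefSeq (GRCm38.p6, chr16:23890795-23891094, minus strand, 250 bases before to 50 bases after the annotated start), with the palindrome TGACGTCA in capitals, 48 to 41 bases before the start.
Sst: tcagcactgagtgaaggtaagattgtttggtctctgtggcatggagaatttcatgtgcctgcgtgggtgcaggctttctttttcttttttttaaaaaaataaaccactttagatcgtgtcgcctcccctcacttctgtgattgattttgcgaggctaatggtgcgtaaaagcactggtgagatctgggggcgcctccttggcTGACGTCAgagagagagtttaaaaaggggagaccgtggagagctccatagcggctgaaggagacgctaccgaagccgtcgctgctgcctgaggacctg
Of the 30 promoter windows listed for 23 of the members this was the 1 that held these letters, which read the same on both strands, and 1.79% of all 32851 windows held them. The match describes the window and says nothing about binding in these brains.

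Dlx1 and Dlx2 are adjacent genes, as are Dlx5 and Dlx6, and these pairs encode homeodomain factors of the ventral forebrain. Dlx1 ran over 121, 161 and 189 in Ts1Cje brain, against 148, 165 and 185 in 2N brain, with a log2 shift of -0.07 (SE 0.106, limma adjusted p = 0.99). Ts1Cje samples held both extremes, replicate 1 the lowest and replicate 4 the highest. Dlx2 ran over 37.3, 44.3 and 54.8 in Ts1Cje brain, against 43.5, 46.5 and 54.5 in 2N brain, with a log2 shift of -0.05 (SE 0.12, limma adjusted p = 0.998), and its lowest value was again that of Ts1Cje replicate 1. Dlx5 had medians of 24.9 in Ts1Cje and 27.2 in 2N, with a log2 shift of -0.13 (SE 0.19). Dlx6 had medians of 15.1 in Ts1Cje and 14.0 in 2N and a wide interval from -0.53 to 0.74. The Dlx6 difference was 0.53 within replicates 3 to 6 and -0.72 within replicates 1 and 2, so its sign turned with that split. Lhx6, a LIM homeobox factor needed for the somatostatin and parvalbumin classes, ran over 44.0, 57.5 and 75.9 in Ts1Cje brain, against 32.1, 62.7 and 77.7 in 2N brain. Its log2 difference was 0.03 (SE 0.188, limma adjusted p = 0.998), and the lowest value was that of 2N replicate 6.

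**Figure D2:**
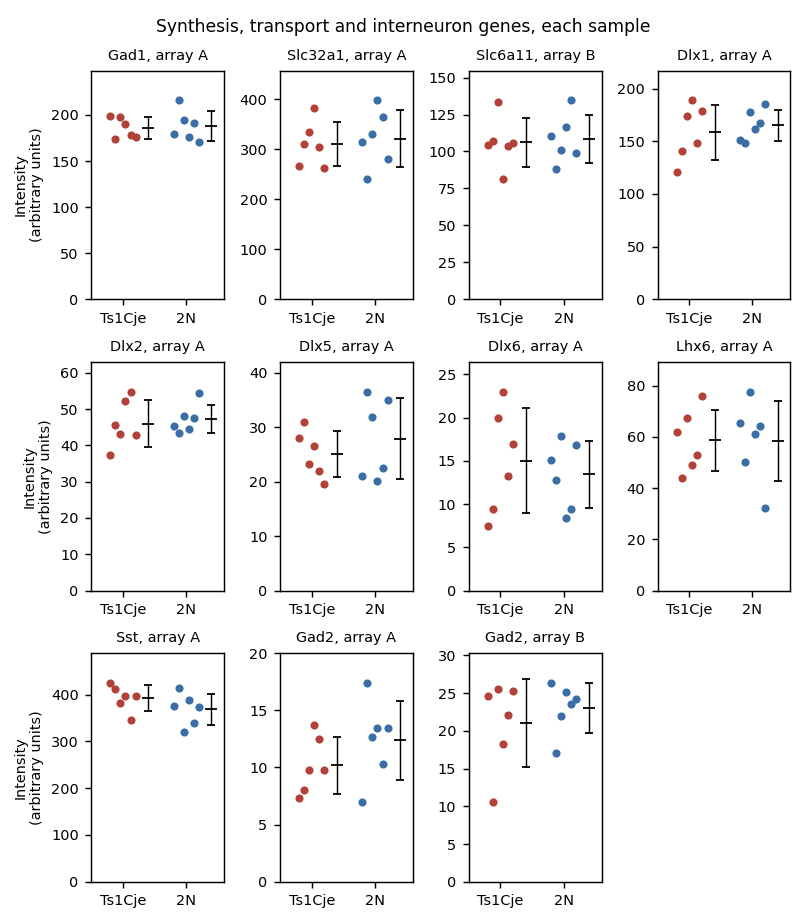
Quantile-normalised intensity (arbitrary units, axes from 0) of synthesis, transport and interneuron genes in each of 6 Ts1Cje (red, left) and 6 2N (blue, right) samples; black bars are the mean and SD. The genotypes overlap in every panel, and Gad1 and Sst show little spread beside Dlx6 and Gad2.

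GABA-A receptor subunits mostly lay under the median intensity of their array, and 0 of their 11 tested probe sets passed. Gabra6, an alpha subunit of cerebellar granule cells, had 2 probe sets with medians of 1.72 and 3.23 in Ts1Cje and 0.858 and 2.10 in 2N, too dim to test. The delta subunit Gabrd was likewise too dim, at 2.38 in Ts1Cje and 2.60 in 2N. Gabra2 ran over 13.9, 17.2 and 23.1 in Ts1Cje brain, against 18.6, 20.0 and 25.6 in 2N brain. The Gabra2 log2 difference was -0.23 (SE 0.179, limma adjusted p = 0.99), and it was between -0.31 and -0.16 with any 1 sample left out.

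Gabra3 had medians of 4.15 in Ts1Cje and 7.94 in 2N. Its log2 difference of -0.93 (SE 0.577, limma adjusted p = 0.99) had an interval from -2.15 to 0.28, and 2 of 6 Ts1Cje samples but 0 of 6 2N samples were at the floor of 1.47. The gamma subunit Gabrg3 had medians of 4.32 in Ts1Cje and 7.13 in 2N, with a log2 shift of -0.83 (SE 0.473, limma adjusted p = 0.99). Both are dim, and neither interval excluded 0 over all 12 samples. Their size depended on how low signals were treated. With the floor at the 25th percentile Gabra3 was at -0.26 and Gabrg3 at -0.41, and with 16 added before log2 in place of a floor they were at -0.18 and -0.20. With 1 sample left out, Gabra3 ran from -1.26 (without Ts1Cje replicate 6) to -0.66 (without Ts1Cje replicate 4), and Gabrg3 from -1.06 (without Ts1Cje replicate 6) to -0.57 (without Ts1Cje replicate 1). The fit without Ts1Cje replicate 6 was the only one of those 12 in which either had an unadjusted limma p under 0.05 (0.047 for Gabra3, 0.043 for Gabrg3), and neither passed after adjustment. Gabrg3 was at -0.36 within replicates 3 to 6 and at -1.77 within replicates 1 and 2.

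Gabrg1, Gabra2, Gabra4 and Gabrb1 lie in a row on chromosome 5, with 1 other protein-coding gene between Gabra2 and Gabra4. Their differences did not share a sign. Gabrg1 was at 0.39 (SE 0.326), Gabra4 at 0.36 (SE 0.398) and Gabra2 at -0.23. Gabrg1 changed sign with the sample split, at 0.74 within replicates 3 to 6 and -0.30 within replicates 1 and 2. The beta subunit Gabrb1 was at 0.01 (SE 0.192) on array A and at 0.34 (SE 0.294) and -0.19 (SE 0.173) by its 2 probe sets on array B. Gabrb2, a beta subunit next to Gabra6 on chromosome 11, was at 0.50 (SE 0.397) on array A. There 2N replicates 2 and 6 were low, at 4.31 and 4.41, and the medians were 14.7 in Ts1Cje and 16.3 in 2N. With 16 added before log2 in place of a floor, Gabrb2 on array A was at 0.17. On array B its dimmer probe set was at -0.06 (SE 0.232). Its brighter probe set ran over 56.3, 61.1 and 66.3 in Ts1Cje brain, against 27.8, 61.4 and 74.8 in 2N brain, with a log2 shift of 0.14 (SE 0.177, limma adjusted p = 0.996). The medians were nearly equal, and the low value of 2N replicate 1 lay far from the others. Without it the Gabrb2 difference was -0.058, and this probe set was at -0.06 within replicates 3 to 6 and 0.54 within replicates 1 and 2.

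Gabbr1, the ligand-binding subunit of the GABA-B receptor, gave different values on its 2 probe sets. On array A it ran over 558, 606 and 638 in Ts1Cje brain, against 569, 601 and 657 in 2N brain. The means were 606 ± 28.4 in Ts1Cje and 607 ± 30.8 in 2N (SD, n = 6 each), with a log2 shift of -0.0022 (SE 0.0567, limma adjusted p = 0.998) and a fold interval from 0.919 to 1.08, the narrowest of all members. On array B it ran over 17.8, 27.6 and 41.2 in Ts1Cje brain, against 28.3, 37.9 and 41.9 in 2N brain. There Ts1Cje replicates 1, 2 and 5 lay below every 2N sample, while Ts1Cje replicate 6 was among the highest. The log2 difference on array B was -0.38 (SE 0.172), with an unadjusted limma p of 0.043 that did not pass (adjusted p = 0.996) and stayed under 0.05 in 4 of the 12 fits that omitted 1 sample, where the difference ran from -0.49 to -0.25. Within replicates 3 to 6 it was -0.37. The difference between the Gabbr1 probe sets was not tested. Gabarap, a ubiquitin-like protein that binds GABA-A receptors and acts in autophagy, ran over 361, 422 and 466 in Ts1Cje brain, against 369, 408 and 438 in 2N brain. Its log2 difference was 0.05 (SE 0.0701, limma adjusted p = 0.99).

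Glycine receptor genes and gephyrin had 0 of 3 probe sets passing. Glra1, an alpha subunit best known from spinal cord and brainstem, had medians of 29.6 in Ts1Cje and 32.0 in 2N, with a log2 shift of -0.14 (SE 0.142). Glrb, the beta subunit that binds gephyrin, ran over 36.7, 55.5 and 88.0 in Ts1Cje brain, against 46.1, 51.9 and 67.8 in 2N brain. The Glrb difference was 0.11 (SE 0.17, limma adjusted p = 0.99), with both extremes in Ts1Cje samples. Gphn ran over 46.5, 50.4 and 91.6 in Ts1Cje brain, against 34.4, 46.2 and 64.2 in 2N brain, with a log2 shift of 0.30 (SE 0.176, limma adjusted p = 0.99). The highest value was that of Ts1Cje replicate 6, and without it the Gphn difference was 0.15. Without 2N replicate 1 it was 0.39, with an unadjusted limma p of 0.035.

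The chloride carriers had 0 of 2 probe sets passing. Slc12a2, which imports chloride and dominates in immature neurons, ran over 50.2, 60.9 and 70.5 in Ts1Cje brain, against 56.1, 59.8 and 83.2 in 2N brain. Its log2 difference was -0.07 (SE 0.12, limma adjusted p = 0.99), with a fold interval from 0.801 to 1.14. Slc12a5, the neuronal chloride exporter whose expression increases as neurons mature, ran over 10.7, 14.6 and 22.7 in Ts1Cje brain, against 6.82, 12.7 and 14.1 in 2N brain. Ts1Cje replicates 2, 3 and 5 lay above every 2N sample and the other Ts1Cje samples lay among them. The Slc12a5 difference of 0.41 (SE 0.258, limma adjusted p = 0.99) had a fold interval from 0.91 to 1.94, so it held both no difference and 1.5-fold. It was 0.61 within replicates 3 to 6 and 0.023 within replicates 1 and 2.

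**Figure D3:**
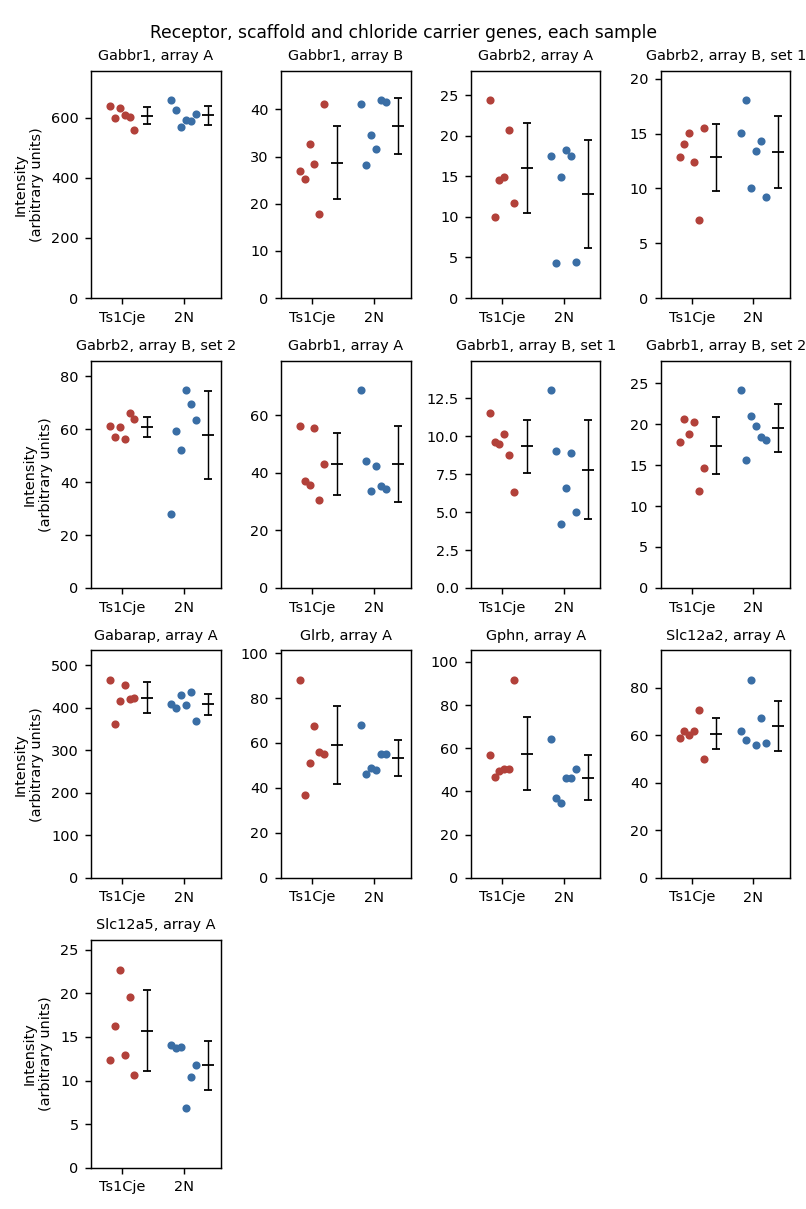
Quantile-normalised intensity (arbitrary units, axes from 0) of receptor, scaffold and chloride carrier genes in each of 6 Ts1Cje (red, left) and 6 2N (blue, right) samples; black bars are the mean and SD. Gabbr1 overlaps almost fully on array A and is shifted downwards in Ts1Cje on array B, where its limma adjusted p is 0.996. Single samples stand away in Gphn (Ts1Cje), in Gabrb2 set 2 of array B (2N) and in the other Gabrb2 set of array B (Ts1Cje).

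Spread within a genotype differed widely between members. Its SD on the log2 scale ran from 0.071 for Gabbr1 to 1.04 for Gabra3, both on array A. Across member probe sets it went with brightness, with Spearman correlations of -0.831 for the 22 of array A and -0.833 for the 8 of array B, a description over probe sets that share the same 12 libraries on each array. The median SD of the bright members on array A was 0.193, beside 0.211 for all bright tested probe sets there. On array B these were 0.332 for 5 members and 0.241. No sample held the highest or lowest value for most members. On array A, Ts1Cje replicate 2 was above the 12-sample mean for 1 of the 12 bright members and Ts1Cje replicate 4 for 10 of 12, with median log2 deviations of -0.11 and 0.10. On array B, replicate 2 was above it for 2 of 5 bright members and replicate 4 for 1 of 5, with medians of -0.03 and -0.16.

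**Figure D4:**
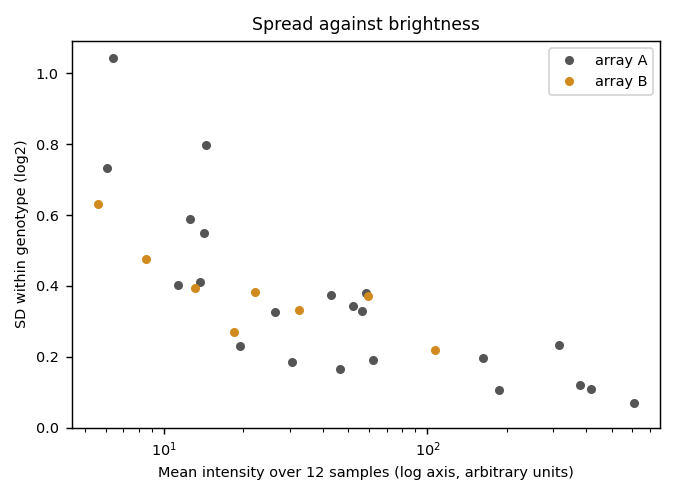
SD within genotype on the log2 scale against mean intensity over 12 samples (log axis) for the tested member probe sets of array A (grey) and array B (orange). The spread is largest for dim probe sets such as Gabra3 (1.04) and smallest for Gabbr1 on array A (0.071).

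**Figure D5:**
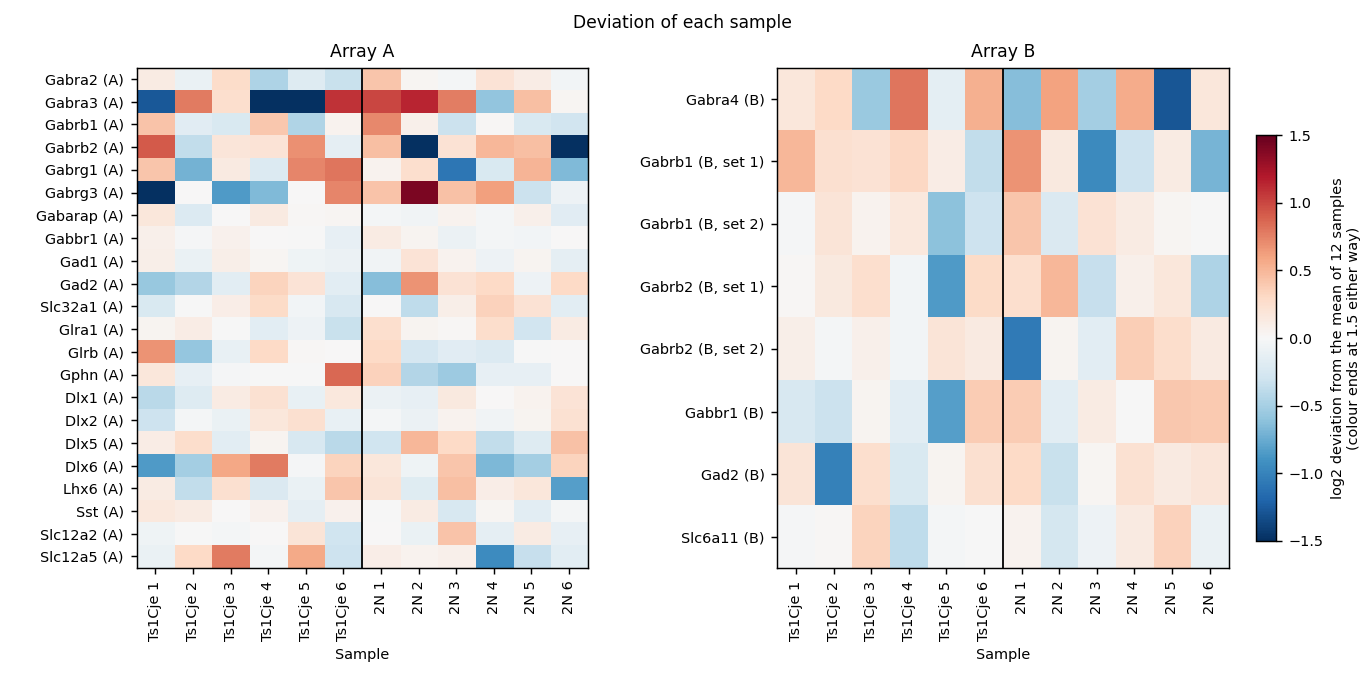
Log2 deviation of each sample from the 12-sample mean for each tested member probe set, with Ts1Cje samples left and 2N samples right of the black line. Strong colours fall in dim receptor genes such as Gabra3 and Gabrg3, and no row separates the genotypes.

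Other genes of the same pathways, listed by role without members, gave 49 tested probe sets for 33 of 57 genes, and 0 passed (limma). Of them 27 were above 0, with a median log2 difference of 0.04. At an unadjusted p under 0.05 array A had 1 of 31 (3.23%), beside 3.63% of all tested probe sets. Array B had 1 of 18 (5.56%), beside 4.24%. They were Cxcr4 at 0.57 (A) and 1 of the Zdhhc3 probe sets at 0.57 (B), both named here after their values were seen. The other 5 Zdhhc3 probe sets lay between -0.21 and 0.06. The autophagy and receptor traffic genes Gabarapl1 and Gabarapl2 were at 0.13 (SE 0.074) and 0.05 (SE 0.0721) on array A, and a dim Gabarapl1 probe set on array B was at -0.34 (SE 0.554). The glycine carrier Slc6a9 was at 0.05 (SE 0.104) and the GABA carrier Slc6a13 at -0.04 (SE 0.095). The interneuron peptide Npy was at 0.07 (SE 0.1) and the secreted protein Reln at 0.12 (SE 0.092) by its brighter probe set, while a dimmer Reln probe set was at -0.76 (SE 0.414). The one tested receptor subunit, Gabrp on array B, was at -0.14 (SE 0.285).

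Markers of other cells were compared beside these genes. Neuron markers had a summed intensity from 7479 to 8363 in Ts1Cje and from 7011 to 8052 in 2N on array A. On array B the sums leaned the other way, from 1531 to 1646 in Ts1Cje and from 1559 to 1687 in 2N. Bright probe sets weigh most in such sums. Of 105 tested probe sets of neurons, glutamatergic, cerebellar, striatal and progenitor cells, glia, microglia, endothelium, choroid plexus, blood and muscle, 0 passed (limma). At an unadjusted p under 0.05 array A had 3 of 82 (3.66%), beside 3.63% of all tested probe sets. Array B had 2 of 23 (8.7%), beside 4.24%. Those of array A were 2 of Pcp2 with opposite signs (-0.85 and 1.11) and 1 of Penk at 0.27. Those of array B were 1 each of Sox10 at 0.46 and Flt1 at -1.07. All were named after their values were seen. Other probe sets of these markers lay nearer 0 or on the other side of it, at -0.02 for Penk, at -0.30 and -0.06 for Sox10, and at -0.09 and -0.58 for Flt1. The part of cell composition in the members' differences was not tested.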

How the data were processed

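Total RNA from brain was measured on 24 arrays, 6 Ts1Cje and 6 2N on each of 2 designs. The deposited intensity values are linear, 1 per probe set. How the authors summarised, scaled or filtered them is not stated in the labels. The trimmed means of the arrays differed up to 2.10-fold (A) and 1.86-fold (B), so each table was quantile normalised. The 66 control probe sets of either design were set aside. Values under the 10th percentile of a table (1.47 on array A, 1.13 on array B) were raised to it before log2. Probe sets whose mean lay under the 25th percentile were dropped, which left 9316 (A) and 9308 (B) probe sets for limma 3.58.1 (R 4.3.3), lmFit and eBayes with trend, Ts1Cje minus 2N. A probe set passed at a Benjamini-Hochberg adjusted p under 0.05 over its whole table. The arrays were fitted apart. Only probe sets with 1 gene symbol were named; none with several symbols held a member. Every member with a probe set was named, and of the other pathway genes the 2 brightest tested per role. Promoter sequence and gene order came from RefSeq. The code was tested on simulated data. The members and gene lists were chosen with earlier results of these data known. The number of arrays limits the precision. The main fit did not pair samples by replicate number, and the labels do not say whether the numbers mark pairs. Correlations between samples of the same number are given with the alternatives.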

Additional observations from a re-analysis of the deposited data

Results flagged for a closer look

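In 3 of the 60 groups of 6 samples examined, 1 sample lay far from the other 5 by Dixon's test on the gap over the range, and chance alone gives about 1 in 20 such groups. Gphn in Ts1Cje replicate 6 on array A was at 91.6, with the next sample at 56.9 (gap over range 0.703). Gabrb2 in Ts1Cje replicate 5 was at 7.09 by the dimmer array B probe set, with the next at 12.4 (0.71). Gabrb2 in 2N replicate 1 was at 27.8 by the brighter array B probe set, with the next at 52.0 (0.633). The part of these samples in other members was not tested.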

How the results depend on the processing

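The count of members past the threshold was 0 on both arrays under every alternative run (normalisation, floor, offset, filter, eBayes without trend, array weights, replicate block, replicates 3 to 6, replicates 1 and 2, 1 probe set per gene, an adjusted p under 0.10, and each sample left out), and so was that of the other pathway genes where it was counted. The smallest adjusted p of a member under any of them was 0.894. The number with an unadjusted p under 0.05 on array A was 0, and 0 to 2 with a sample left out (2 without Ts1Cje replicate 6, 1 without 2N replicate 1). On array B it was 1, and 0 to 1 with a sample left out (0 without Ts1Cje replicate 1, 2, 4 or 5 and without 2N replicate 1, 3, 5 or 6). On array B it was 0 without normalisation between arrays, 0 without the trend, 0 among replicates 3 to 6 and 0 among replicates 1 and 2; the causes were not tested. The median log2 difference stayed between -0.07 and 0.02 (A) or between -0.12 and 0.04 (B). The sign of a member's difference changed in 51 of 711 refits, and 12 of 30 probe sets kept it throughout. Without normalisation between arrays the median of all tested probe sets was -0.06 (A) or 0.05 (B). With the replicate block, 0 members passed on array A and 0 on array B. Samples of the same number correlated by 0.0171 to 0.0767 on array A and 0.0127 to 0.109 on array B, and 4 of 6 Ts1Cje samples on each array correlated best with their own number. These correlations are weak but all above 0. Numbers 1 and 2 also stood apart from numbers 3 to 6 in either genotype, so the correlations cannot decide whether samples were paired by number. Dim probe sets limit the precision.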
